A study of Mus musculus with 12 samples.

Results

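The translation initiation and elongation factors were followed through the calcium-induced differentiation of mouse keratinocytes. Members were taken by symbol, as every gene of the files whose name begins with Eif1 to Eif6 or with Eef1 or Eef2, leaving out Eif4ebp1 and Eef1e1. This rule found 55 genes of the 10751 genes that the 4 files name, and it used no measured value beyond the presence of a gene in a file. Of the 55 genes, 41 were listed in the expression comparison, 52 had at least 1 listed m6A peak, 14 had a called methylation site, and 11 were in all 3 kinds of file.

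The study compared cells 4 days after raised calcium with cells at day 0, and its 12 libraries were 3 day 4 input, 3 day 4 m6A immunoprecipitation, 3 day 0 input and 3 day 0 m6A immunoprecipitation libraries. Both days used primary keratinocytes that had been isolated from the epidermis of newborn mice and kept in low-calcium medium to passage 3, with a feeder layer of 3T3 fibroblasts arrested by mitomycin C. The cells were then differentiated by a shift in calcium. N6-methyladenosine (m6A) is a methyl mark on adenosines of RNA. Here it was mapped by sequencing polyadenylated RNA fragments caught with an antibody to the mark, beside the unselected input RNA. Whether replicates were separate animals is not in the labels, and p-values may then reflect technical spread alone. The files hold 1 value per gene, peak or site from the authors' own comparison and none per library, so values by sample, an SD between replicates and library depth could not be given.

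Translation of an mRNA begins when the small ribosomal subunit, loaded with initiator tRNA by eIF2 and held by eIF3, eIF1, eIF1A and eIF5, is brought to the capped 5′ end by eIF4F and scans to the start codon. The eIF2B complex recharges eIF2 with GTP, eIF5B joins the large subunit, and elongation then proceeds with eEF1A delivering aminoacyl-tRNA and eEF2 moving the ribosome along. Cells lower initiation by phosphorylating eIF2 through 4 related kinases. They lower elongation by phosphorylating eEF2 through eEF2 kinase. Keratinocytes that leave the basal layer stop dividing and turn to making the proteins of the cornified layer.

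In day 4 cells, 38 of the 41 listed factor genes were lower than in day 0 cells and 3 were higher, per the authors' deposited table of DESeq2 results, which lists genes at an adjusted p under 0.05. Across the 14924 genes tested, 53.5% were called, 26.4% as lower and 27.1% as higher at day 4, against 38 and 3 of the 55 factor genes. The median change of the 41 factor genes was a log2 fold change of -0.55 per the authors' deposited table, and the median of all 7978 listed genes was 0.26. The falls were shallow: 4 factor genes fell at least 2-fold and 1 rose at least 2-fold per the authors' deposited table. Most factor genes were highly counted, so they were also set beside other genes above the same count floor. Of 31 factor genes whose mean normalized count reached 1000, 29 (93.5%) were lower at day 4, against 1247 (50.6%) of the other 2464 such genes per the authors' deposited table. Counts were not matched beyond that floor: the median mean count was 4474 for these factor genes and 1895 for the other genes, per the authors' deposited table. The medians of those groups were -0.53 for the factor genes and -0.22 for the other genes on the log2 scale, per the authors' deposited table. Genes with changes near 0 are mostly not listed. With signs split almost evenly, the medians of all listed genes and of the other genes are therefore not a typical change. Since 3 members (Eif1ax, Eif2b3 and Eif2s1) entered through the expression table alone, the 52 members with a listed peak were also counted by themselves. Of these 52 genes, 35 (67.3%) were lower and 3 (5.77%) higher per the authors' deposited table, against 34.4% lower and 31.1% higher among the other 7940 genes with a peak. These are bulk values that the authors normalized between libraries, so fewer cells of a type and less RNA per cell cannot be told apart.

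**Figure D1:**
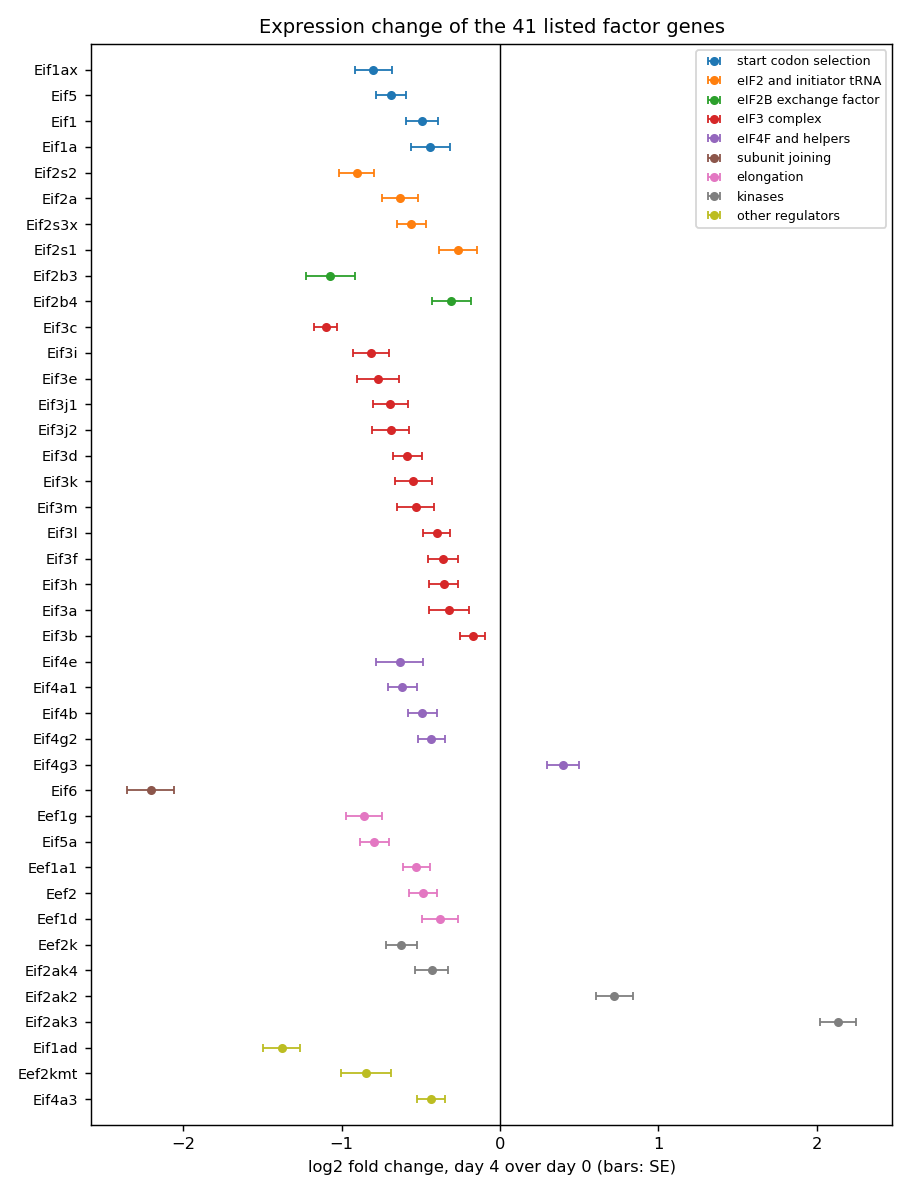
Log2 fold change of day 4 over day 0 for the 41 factor genes of the authors' expression table, grouped by role, with bars of 1 standard error as deposited. Points left of 0 are lower at day 4: 38 of 41 lie there, and Eif2ak3, Eif2ak2 and Eif4g3 lie to the right.

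**Figure D2:**
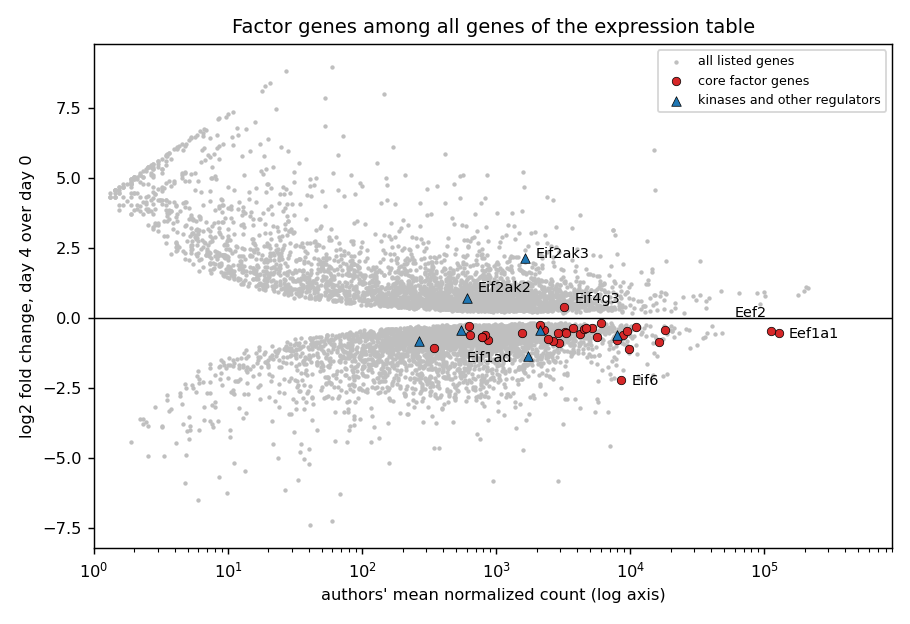
Log2 fold change of day 4 over day 0 against the authors' mean normalized count (log axis) for every listed gene, with core factor genes as red circles and kinases and other regulators as blue triangles. The factor genes sit mostly just under 0 at high counts, with Eif6 at -2.21 and Eif2ak3 at 2.13.

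Among the factors that hold the scanning small subunit to a start codon, 4 of 5 genes were listed and all 4 were lower. Eif1ax, an X-linked gene for eIF1A, had a log2 fold change of -0.80 (SE 0.12) at a mean normalized count of 872 per the authors' deposited table. Eif5, which makes eIF2 hydrolyse its GTP once a start codon is found, had -0.69 (SE 0.10) at a mean of 5653 per the authors' deposited table. Eif1, which keeps the subunit open while it scans, had -0.49 (SE 0.10), and Eif1a had -0.44 (SE 0.12), both log2 fold changes from the authors' deposited table. The Eif1 paralogue Eif1b was not listed, which means not called or not tested.

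The 3 subunits of eIF2, which carries initiator tRNA, were all lower. Eif2s2, the beta subunit, had a log2 fold change of -0.91 (SE 0.11) at a mean of 2933 per the authors' deposited table. Eif2s3x, the X-linked gamma subunit, had -0.56 (SE 0.09), while Eif2s1, the alpha subunit that the stress kinases phosphorylate, had -0.26 (SE 0.12, DESeq2 adjusted p = 0.0468), the edge of the authors' deposited table. Eif2a, a separate protein that can also bring initiator tRNA, had -0.63 (SE 0.11) per the authors' deposited table. The table gives Eif2a and Eif2s1 the same Ensembl identifier, that of Eif2s1, so these 2 lines rest on the symbols, and the m6A peaks under the name Eif2a lie in the RefSeq span of Eif2a. Eif2d, another tRNA-delivering factor, was not listed, and the Y-linked Eif2s3y was not among the members that the rule found. Of the 5 subunits of eIF2B, Eif2b3 had a log2 fold change of -1.07 (SE 0.16) at a mean of 345 and Eif2b4 had -0.31 (SE 0.12, DESeq2 adjusted p = 0.0280) per the authors' deposited table, and Eif2b1, Eif2b2 and Eif2b5 were not listed.

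The eIF3 complex is the initiation factor with the most subunits and the platform on which the other factors meet the ribosome. All 13 listed of its 14 gene names were lower, with log2 fold changes between -1.10 and -0.17 and a median of -0.55 per the authors' deposited table, and Eif3g was not listed. Eif3c, a core scaffold subunit, was 2.14-fold lower, a log2 fold change of -1.10 (SE 0.07, DESeq2 adjusted p = 2.8e-48) at a mean normalized count of 9712 per the authors' deposited table. Its next neighbours were Eif3i at -0.81 (SE 0.11) and Eif3e at -0.77 (SE 0.14), whose log2 fold changes per the authors' deposited table differ by less than their standard errors. At the shallow end, Eif3h had -0.36 (SE 0.09), Eif3a had -0.32 (SE 0.13, DESeq2 adjusted p = 0.0254) and Eif3b had -0.17 (SE 0.08, DESeq2 adjusted p = 0.0467), log2 fold changes from the authors' deposited table. Eif3a and Eif3b are core scaffold subunits as well, so the largest and the smallest changes of the complex both fell within its core. Between them lay Eif3d at -0.59, Eif3k at -0.55, Eif3m at -0.53, Eif3l at -0.40 and Eif3f at -0.36, with standard errors of 0.08 to 0.12, as log2 fold changes per the authors' deposited table. The names Eif3j1 and Eif3j2 stand for near-identical copies: the table gives both the same Ensembl identifier and log2 fold changes of -0.69 each per the authors' deposited table, and the peaks under both names lie at the Eif3j1 locus. They are best read as 1 locus, which leaves 37 lower of 40 listed factor genes.

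The eIF4F group, which binds the cap and unwinds the leader, was the least uniform of the core groups, with 4 lower, 1 higher and 4 not listed of 9 genes per the authors' deposited table. The cap-binding protein gene Eif4e had a log2 fold change of -0.63 (SE 0.15) at a mean of 632, while its paralogue Eif4e2, a repressive cap-binding protein, was not listed per the authors' deposited table. The helicase gene Eif4a1 had -0.62 (SE 0.09) at a mean of 8854, its partner Eif4b had -0.49 (SE 0.09) at a mean of 9481, and the paralogue Eif4a2 and the helicase partner Eif4h were not listed per the authors' deposited table. The scaffold genes went different ways: Eif4g2, whose product lacks the part that binds eIF4E, had a log2 fold change of -0.43 (SE 0.09), Eif4g3 had 0.40 (SE 0.10, DESeq2 adjusted p = 2.5e-04), and Eif4g1 was not listed per the authors' deposited table. Eif4g3 was the single core factor gene that rose. Eif4e3 was not among the members that the rule found.

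Eif6 showed the deepest fall of all 41. Its product binds the large subunit, keeps it from joining the small one too early and takes part in making large subunits. It was 4.61-fold lower in day 4 than in day 0 cells, a log2 fold change of -2.21 (SE 0.15, DESeq2 adjusted p = 5.2e-49) at a mean of 8533 per the authors' deposited table. The joining factor gene Eif5b was not listed.

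All 5 elongation genes were lower. Eef1g, part of the exchange complex that recharges eEF1A, had a log2 fold change of -0.86 (SE 0.12) at a mean of 16398, and Eef1d of the same complex had -0.38 (SE 0.11) per the authors' deposited table. Eif5a, whose hypusine-bearing product helps ribosomes past slow peptide bonds, had -0.79 (SE 0.09) at a mean of 8014 per the authors' deposited table. Eef1a1 and Eef2, the factor genes with the most counts, had log2 fold changes of -0.53 (SE 0.08) at a mean of 129052 and -0.49 (SE 0.09) at a mean of 110928 per the authors' deposited table, a difference smaller than either standard error. Eef1a2 and Eif5a2 were not among the members that the rule found.

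The kinases split. Eif2ak3 (PERK), the kinase of endoplasmic reticulum stress, was 4.39-fold higher in day 4 than in day 0 cells, a log2 fold change of 2.13 (SE 0.11, DESeq2 adjusted p = 1.5e-75) at a mean of 1631 per the authors' deposited table. Eif2ak2 (PKR), activated by double-stranded RNA, had a log2 fold change of 0.72 (SE 0.12, DESeq2 adjusted p = 4.2e-09) at a mean of 601 per the authors' deposited table. The amino-acid sensor kinase gene Eif2ak4 (GCN2) had -0.43 (SE 0.10), the elongation kinase gene Eef2k had -0.62 (SE 0.10) at a mean of 7905, and Eif2ak1, the haem-regulated kinase gene, was not listed per the authors' deposited table. So 2 of the 3 rises among all factor genes were kinases of eIF2, and the kinase of eEF2 fell along with its substrate. Of the other regulators, Eif1ad, which codes for a protein with an eIF1A domain, had a log2 fold change of -1.38 (SE 0.12, DESeq2 adjusted p = 2.0e-31) at a mean of 1716 per the authors' deposited table. Eef2kmt, the methyltransferase gene of eEF2, had -0.85 (SE 0.16), and Eif4a3, the helicase gene of the exon junction complex, had -0.43 (SE 0.09) per the authors' deposited table. Eif4ebp2 and Eif4enif1, which code for proteins that bind eIF4E, were not listed.

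Other genes of the translation apparatus and its control were put in a list by hand, with earlier results of these data known. Of its 54 genes, 28 were listed, 23 lower and 5 higher at day 4, against 26.4% lower and 27.1% higher of all genes tested, with a median log2 fold change of -0.49 per the authors' deposited table. The deepest falls were Trib3 at -4.71 (SE 0.18), the eIF4E-binding protein gene Eif4ebp1 at -2.12 (SE 0.14), the poly(A)-binding protein gene Pabpc4 at -1.98 (SE 0.10) and the stress transcription factor gene Atf4 at -1.63 (SE 0.10), log2 fold changes from the authors' deposited table. Eefsec, the selenocysteine elongation factor gene, had -1.43 (SE 0.13), Ddit3, a gene that ATF4 induces under stress, had -1.09 (SE 0.18) and Pabpc1 had -1.08 (SE 0.10), again log2 fold changes from the authors' deposited table. Pdcd4, an inhibitor of eIF4A, had the largest rise at 1.16 (SE 0.16), followed by Mknk2, an eIF4E kinase gene, at 0.86 (SE 0.13), per the authors' deposited table. Tpt1 at 0.71, Mcts2 at 0.34 and Paip1 at 0.29 were the other rises in log2 fold change per the authors' deposited table. Atf4, Trib3 and Ddit3, known members of the response to phosphorylated eIF2, were lower at the day on which Eif2ak3 mRNA was higher. Eef1e1, a tRNA synthetase complex gene that shares the Eef prefix, had a log2 fold change of -0.91 (SE 0.17) per the authors' deposited table.

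Promoter sequences were read because the factor genes moved together, and are shown for lower members that hold the E-box CACGTG, a motif that Myc and related factors bind. They were matched by symbol for 45 of the 55 genes, from RefSeq on GRCm38.p6, as 250 bases before to 50 after each annotated start. The E-box, which reads the same on both strands, stood in 11 of 45 factor genes (24.4%), against 8.09% of all 27025 genes with a promoter sequence and 12.0% of the 8185 such genes in the files. It stood in 8 of the 28 lower members with a promoter sequence (28.6%). A share over all genes lower at day 4 was not computed, so that figure has no like comparison. Eif6, Eif1ad, Eif3c and Eif2b3, the members that fell at least 2-fold, were not among the carriers, though some members had no promoter sequence. Each line shows 30 bases, 5′ to 3′ on the gene's strand, with the E-box in capitals.
Eef2, chr10:81176576-81176605, plus strand: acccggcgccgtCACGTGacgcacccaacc
Eef2k, chr7:120842788-120842817, plus strand: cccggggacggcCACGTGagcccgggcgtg
Eif3a, chr19:60790654-60790683, minus strand: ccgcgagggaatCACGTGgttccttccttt
Eif3f, chr7:108934335-108934364, plus strand: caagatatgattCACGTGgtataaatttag
Eif3k, chr7:28981915-28981944, minus strand: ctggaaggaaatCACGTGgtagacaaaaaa
Eif4a1, chr11:69672595-69672624, minus strand: cgatcgcctccgCACGTGtaaaggtgctgg
Eif4e, chr3:138527192-138527221, plus strand: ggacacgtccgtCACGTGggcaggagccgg
Eif5a, chr11:69921443-69921472, minus strand: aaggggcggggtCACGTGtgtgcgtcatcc

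Counting from the annotated start, the motif shown began at position -31 in Eef2k, -43 in Eef2, -44 in Eif3k, -64 in Eif4e, -68 in Eif3f and -189 in Eif4a1, while in Eif3a it lay after the start, at 22. In Eif5a it began at -74 or -185, as counted from different annotated starts. A second E-box stood at -228 in Eif4e and, before another annotated start, at -178 in Eif5a. The other carriers, Eif1b, Eif4h and Eif4g1, the last with E-boxes at -54 and 15, were not listed in the expression table. The 250 bases before the start of Eef2 and of Eif3f are given whole, as one member of the elongation and one of the eIF3 group, with the E-box in capitals.
Eef2, chr10:81176381-81176630, plus strand: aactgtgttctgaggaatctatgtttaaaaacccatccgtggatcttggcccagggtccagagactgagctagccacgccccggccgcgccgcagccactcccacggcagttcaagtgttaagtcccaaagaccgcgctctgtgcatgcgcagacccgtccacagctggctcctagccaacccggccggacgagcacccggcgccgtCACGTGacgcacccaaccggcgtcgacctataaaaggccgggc
Eif3f, chr7:108934165-108934414, plus strand: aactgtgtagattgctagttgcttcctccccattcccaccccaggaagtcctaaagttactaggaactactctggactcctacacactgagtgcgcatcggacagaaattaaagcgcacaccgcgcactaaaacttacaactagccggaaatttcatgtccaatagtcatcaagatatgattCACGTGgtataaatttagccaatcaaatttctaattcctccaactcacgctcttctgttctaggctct

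Other motifs are given beside their share in all genes with a promoter sequence. The amino acid response motif TGATGNAAN, searched on both strands, stood in 2 of 45 factor genes (4.44%), Eef2k and Eif2s3x, against 4.50% of all genes. mRNAs of the translation machinery often begin with a C followed by an unbroken run of C or T, which ties their translation to mTOR. A C followed by at least 4 such bases began exactly at the annotated start in 2 of 45 factor genes (4.44%), against 3.01% of all genes, and within 5 bases of it in 13 of 45 (28.9%), against 21.2%. Those at the start were Eif3f and Eif2s3x, and Eef1a1 and Eif3l are shown beside them as members with the run near the start. Each line runs from 10 bases before to 20 after the start, with capitals from the matching C nearest the start to the next A or G. In all 4 the run of C or T reaches farther upstream than the capitals.
Eif3f, chr7:108934405-108934434, plus strand: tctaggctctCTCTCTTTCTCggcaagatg
Eif2s3x, chrX:94212632-94212661, minus strand: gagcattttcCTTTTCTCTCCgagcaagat
Eef1a1, chr9:78481705-78481734, minus strand: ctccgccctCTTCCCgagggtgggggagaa
Eif3l, chr15:79075213-79075242, plus strand: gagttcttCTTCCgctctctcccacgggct

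A match is a string of letters in these windows and says nothing of binding or translation, neither of which was measured.

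The m6A peak lists held 125 peaks in 46 factor genes at day 4 and 146 peaks in 51 factor genes at day 0. That was 2.72 peaks per gene with a peak at day 4 and 2.86 at day 0, against 2.65 and 2.70 over all genes on those days. Fewer peaks at day 4 than at day 0 were listed for 20 of the 52 genes with a peak (38.5%) and more for 13 (25.0%), against 36.7% and 29.2% of all genes with a peak. Both lists held 45 of the 52 factor genes with a peak (86.5%), against 79.2% of all genes. The mark in these mRNAs was therefore listed on both days for most members, and the change in the number of peaks was close to that of other genes.

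**Figure D3:**
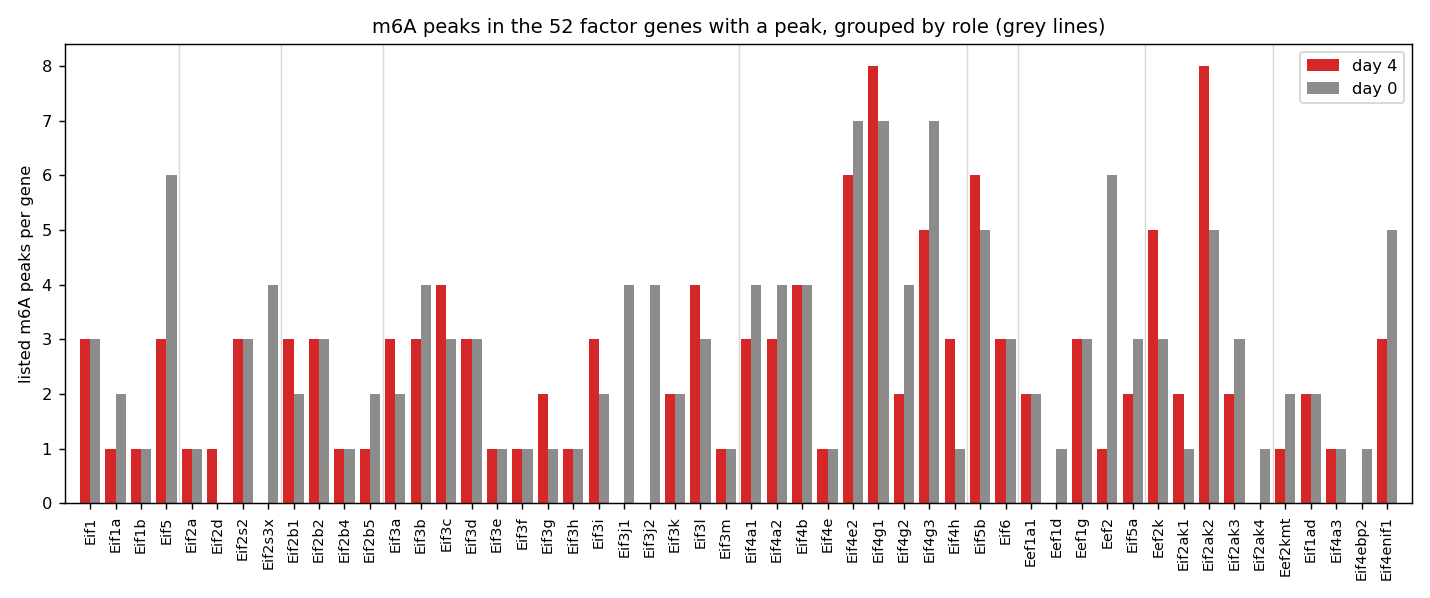
Number of listed m6A peaks per factor gene at day 4 and at day 0, grouped by role. Eif4g1 and Eif2ak2 have the most at day 4 (8 each, against 7 and 5 at day 0), and Eef2 the widest gap (1 at day 4, against 6 at day 0).

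Peak strength is given as the authors' enrichment score, and, since its scaling is not stated, also as a percentile within the list of the same day. Factor peaks were on the weak side of both lists, with a median score of 10.4 at day 4 and 10.7 at day 0, against 17.1 and 21.4 for all peaks. Their median percentile was 33.6 at day 4 and 30.7 at day 0. Of the day 4 peaks 86.4% overlapped a day 0 peak by at least 1 bp on the same strand, against 78.9% of all day 4 peaks. Of the day 0 peaks 70.5% overlapped a day 4 peak, against 70.2% of all. Peaks without a partner had a median percentile of 8.95 for the 17 at day 4 and 17.1 for the 43 at day 0, against 33.2 and 37.6 for all such peaks on those days. Peaks within 1000 bp of the annotated 3′ end of the gene made up 32.0% at day 4 and 33.8% at day 0, against 31.2% and 29.7% of all peaks in protein-coding genes. Those within 1000 bp of the 5′ end made up 16.8% at day 4 and 14.1% at day 0, against 11.3% and 9.18%.

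The highest-scoring factor peak on both days was in Eif2ak3, at chr6:70904142-70904740 with a score of 109 at day 4 and at chr6:70904292-70904641 with a score of 535 at day 0, the percentiles 90.2 and 98.9 of the lists. These intervals, on build mm10, overlap and end 501 bp from the annotated 3′ end of the gene at day 4 and 600 bp from it at day 0. No methylation site was called in Eif2ak3, and the median score of all peaks was also lower at day 4. Next at day 4 came a peak of Eif2ak2 with a score of 94.7 and one of Eif2ak1 with 91.7. At day 0 they were a peak of Eif2b4 with a score of 207 and one of Eif2ak4 with 171. The kinase genes held 17 peaks at day 4 and 13 at day 0, with Eif2ak2 at 8 peaks on day 4 and 5 on day 0.

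Among the elongation genes 8 peaks were listed at day 4 and 15 at day 0. Eef2 had 1 peak at day 4, at chr10:81181960-81182459 with a score of 52.5, 50 bp from the 3′ end. At day 0 the same interval had a score of 99.2, and 5 more peaks with scores of 1.62 to 2.33, at percentiles up to 1.32, lay upstream of it in the gene. The Eef2 difference in number thus rests on peaks at the weak edge of the day 0 list. Eef1a1 had 2 peaks on each day, with a peak at chr9:78478553-78478851 on both days, scored 23.6 at day 4 and 50.2 at day 0, and a further peak scored 1.41 at day 4 and 1.62 at day 0 that did not overlap between days. Eif5, with 3 peaks at day 4 and 6 at day 0, kept partners for all 3 of its day 4 peaks.

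**Figure D4:**
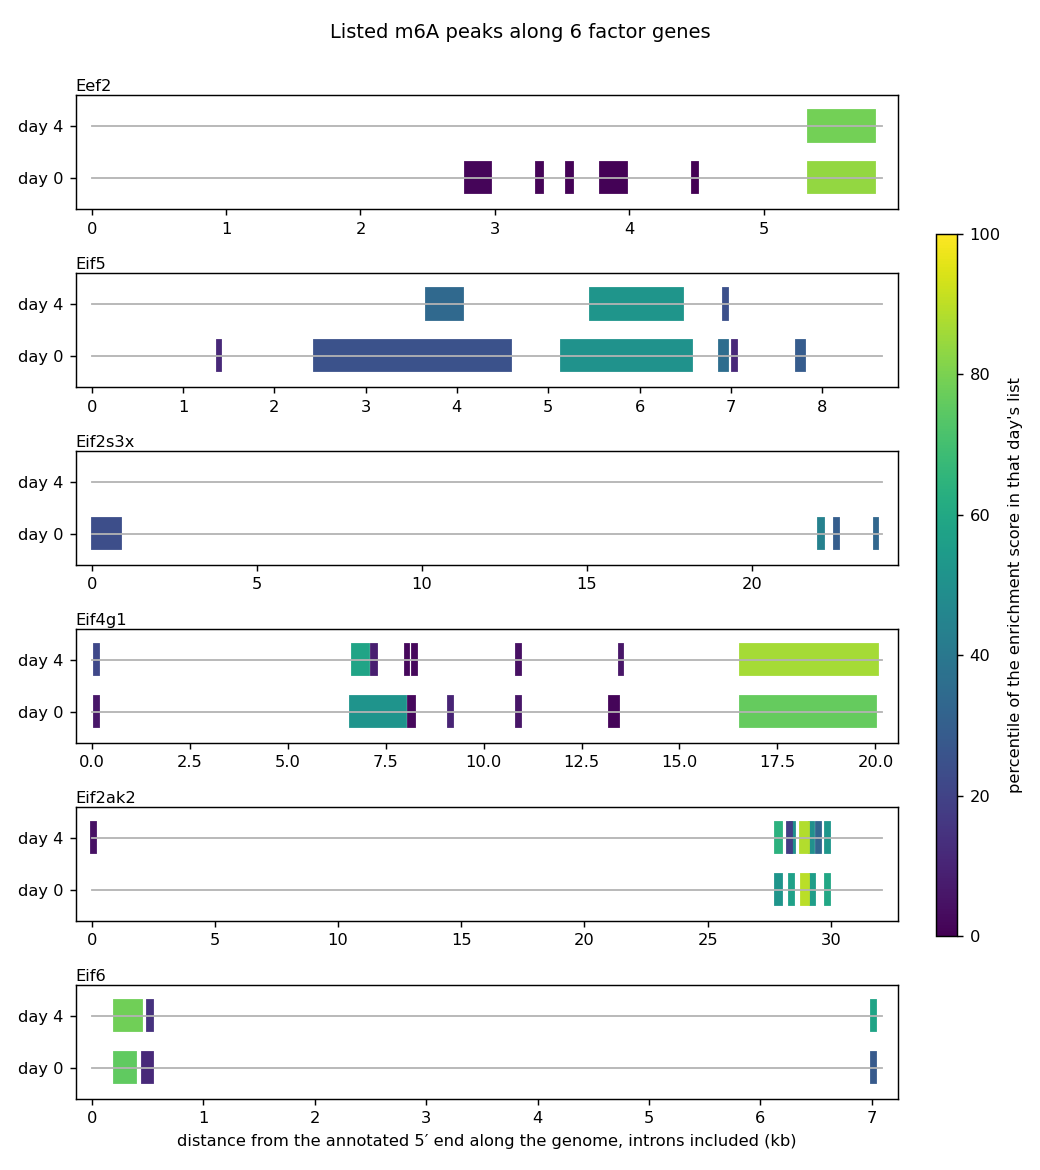
Listed m6A peaks along 6 factor genes at day 4 (upper line) and day 0 (lower line), by distance from the annotated 5′ end in kb with introns included, coloured by the percentile of the peak's score in its day's list. Eef2 keeps its peak at the 3′ end on both days and has 5 further peaks at day 0, while Eif2s3x has 4 peaks at day 0 and none at day 4.

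The eIF4F genes held the most peaks of any group, 35 at day 4 and 39 at day 0. Eif4g1 had 8 at day 4 and 7 at day 0, Eif4e2 had 6 and 7, and Eif4g3 had 5 and 7 on those days. In Eif5b there were 6 peaks at day 4 and 5 at day 0. The eIF3 genes held 28 peaks at day 4 and 32 at day 0. Without Eif3j1 and Eif3j2, which share their positions and had peaks at day 0 alone, the eIF3 counts were 28 at day 4 and 24 at day 0, so the direction of the group's count rests on that locus. Over all factor genes, leaving out those names gave 125 peaks at day 4 and 138 at day 0.

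A peak on 1 day alone was found in 7 factor genes. Eif2d had a peak at day 4, with a score of 67.5 at percentile 83.5 of its list, and none at day 0. Eef1d, Eif2ak4, Eif2s3x, Eif3j1, Eif3j2 and Eif4ebp2 had peaks at day 0 and none at day 4. The strongest of these was the Eif2ak4 peak at chr2:118422371-118422470, at percentile 91.3, and the 4 peaks of Eif2s3x had scores of 8.49 to 16.8. The Eif2s3x peak at chrX:94211770-94212651 covers the annotated start shown above, and at day 4 a weak Eif3l peak, with a score of 5.06, covers its start. Of these 7 genes 0 had a called site in the methylation table, against 227 (13.7%) of the 1660 genes of the files with peaks on 1 day alone. As shares of the 52 genes with a peak, 1.92% had peaks at day 4 alone and 11.5% at day 0 alone, against 7.67% and 13.1% of all genes.

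The methylation table called 14 sites in 14 factor genes, 10 gains and 4 losses at day 4 against day 0, at a false discovery rate under 0.05 per the authors' deposited table. Across the 36796 sites tested 6.96% were called, 4.79% as gains and 2.17% as losses, and 71.4% of the called factor sites were gains, against 68.8% of all called sites per the authors' deposited table. A called site was listed for 14 of the 52 factor genes with a peak (26.9%), against 25.2% of all genes with a peak, so factor genes were called about as often as others. Changes are log fold changes whose base the deposited table does not state.

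Of the 14 eIF3 genes, all with a peak, 5 (35.7%) had a called site, against 25.2% of all genes with a peak. All 5 were gains, where 68.8% of all called sites are gains, and the difference from the other groups was not tested. The sites and their log fold changes per the authors' deposited table were Eif3f at chr7:108941504-108941699 with 2.36, Eif3k at chr7:28971422-28972117 with 2.16, and Eif3i at chr4:129592022-129592119 with 2.10. Eif3g at chr9:20894397-20894636 had 2.07 and Eif3c at chr7:126546961-126547059 had 1.85 per the authors' deposited table. Their false discovery rates ran from 8.5e-06 for Eif3f to 0.0146 for Eif3c per the authors' deposited table. At these sites the peak lists, made from the same libraries, moved with the gains. The Eif3f peak had a score of 24.0 at day 4 and 12.1 at day 0, the Eif3k peak 21.2 and 13.1. The Eif3i peak had 11.4 and 4.49 and the Eif3c peak 8.13 and 3.87 on those days. The Eif3g site met a peak at day 4 alone. The highest-scoring other peak went the other way in Eif3k (5.77 at day 4, 14.6 at day 0), Eif3c (8.51, 13.8) and Eif3g (4.75, 8.10). In Eif3i it went the same way (21.0, 6.25), and Eif3f had no other peak. Of these genes Eif3c, Eif3f, Eif3i and Eif3k were lower in expression, and Eif3g was not listed.

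Eif6, the gene with the deepest fall in expression, gained at chr2:155819887-155819986, with a log fold change of 1.84 and a false discovery rate of 2.8e-05 per the authors' deposited table, and its peak there had a score of 22.6 at day 4 and 9.78 at day 0. Eif4g2 gained 1.26 at chr7:111081631-111083030 and Eif4g1 gained 0.94 at chr16:20689221-20692833, as log fold changes per the authors' deposited table. The widest gains, Eef2k with 3.14 at chr7:120842881-120843079 and Eif1a with 2.57 (false discovery rates 0.0142 and 0.00208 per the authors' deposited table), overlapped no peak listed on either day. They have no support from the peak lists.

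The losses were Eif2ak2 at chr17:78853246-78853395 with a log fold change of -1.46, Eif4g3 at chr4:138206084-138206631 with -0.77, Eif4enif1 at chr11:3243892-3244289 with -0.52 and Eif1ad at chr19:5368899-5370425 with -0.49 per the authors' deposited table. Their false discovery rates ran from 0.00304 for Eif4g3 to 0.0275 for Eif4enif1 per the authors' deposited table. The overlapping peaks had scores of 17.0 at day 4 and 26.6 at day 0 in Eif2ak2, 58.7 and 130 in Eif4g3, 48.2 and 117 in Eif4enif1, and 43.8 and 106 in Eif1ad on those days. As percentiles of each day's list, day 4 first, these were 49.8 and 55.5 in Eif2ak2 and 81.1 and 87.8 in Eif4g3. They were 77.2 and 86.2 in Eif4enif1 and 75.3 and 84.8 in Eif1ad. The called sites of the eIF4G scaffold genes differed in sign, with Eif4g1 and Eif4g2 gaining and Eif4g3 losing. They lay at unlike places: the Eif4g2 site at the annotated 5′ end, those of Eif4g1 and Eif4g3 50 bp and 455 bp from the 3′ end. In the elongation, eIF2 and eIF2B genes, 0 of the 13 with a peak had a called site, against the same 25.2% of all genes with a peak. These are exactly the role groups without a called site, so the 0 follows from which groups were joined. That difference was not tested and cannot be read as a result about these genes.

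**Figure D5:**
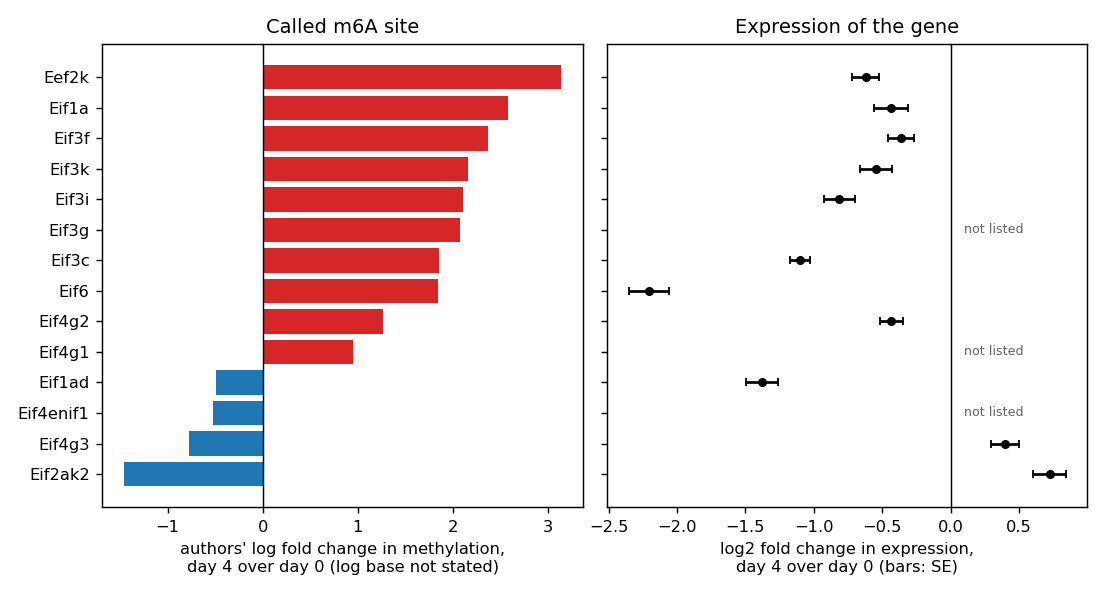
Log fold change (base not stated) of the 14 called m6A sites in factor genes, day 4 over day 0 (left), beside the log2 fold change in expression of the same gene with bars of 1 SE (right). The 10 gains lie right of 0, 5 of them in eIF3 genes, and the 4 losses left of it, and Eif4g3 and Eif2ak2 are the losing genes with higher expression.

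Sites set beside expression showed 8 gains and 1 loss among factor genes lower at day 4, and 0 gains and 2 losses among those higher, per the authors' deposited tables. Of those 8 gains, 2 (Eef2k and Eif1a) overlapped no listed peak. Over all genes, gains made up 67.2% of the 838 called sites in lower genes and 75.7% of the 910 in higher genes per the authors' deposited tables. The losing genes that rose were Eif2ak2 and Eif4g3, and Eif1ad was the gene that lost while lower in expression. Within 250 bp of the annotated 3′ end lay 7 of the 10 gains (70.0%) and 0 of the 4 losses, against 26.0% of all gains and 10.0% of all losses in protein-coding genes, a window chosen after the positions had been seen. The 7 were Eif3c, Eif3f, Eif3g, Eif3i, Eif3k, Eif4g1 and Eif6. The count of losses depends on the window: the Eif3f gain lay 243 bp from the end, the Eif4enif1 loss 299 bp and the Eif4g3 loss 455 bp. Distances run from the nearest edge of the interval, also for long intervals such as that of Eif4g1. Interval edges step in bins, peaks may span introns, and exon or UTR position was not used here.

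The labelled cell type was checked against markers. All 8 keratinocyte markers were listed, 5 higher and 3 lower at day 4, and Krt5 and Krt14 had 196003 and 209477 mean normalized counts per the authors' deposited table. The 3 lower were Itga6 at -0.99, Trp63 at -0.92 and Itgb4 at -0.67, and the largest rise was Krt15 at 4.57, log2 fold changes per the authors' deposited table. Of 5 markers of differentiated keratinocytes, Ivl, Krt10 and Krt1 were listed and higher, with Krt1 at a mean of 2.65 per the authors' deposited table. Lor and Flg were in none of the files. Of 14 fibroblast and feeder markers 6 were listed, 5 higher and 1 lower, with log2 fold changes of 4.58 for Col5a1, 3.66 for Postn, 2.97 for Acta2, 1.73 for Pdgfra, 1.07 for Fn1 and -2.07 for Col6a1 per the authors' deposited table. The other 8, Col1a1, Col1a2, Col3a1, Pdgfrb, Vim, Thy1, Dcn and Lum, were in none of the files. The part of feeder cells in the factor values was not tested.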

How the data were processed

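RNA of 12 libraries was profiled, 3 per day and kind, grouped by their titles. The submitters' processing notes name HISAT2 2.1.0, DESeq2 1.18.1 and mm10 as what the authors used, and neither the peak caller nor the methylation test is given in these sources. Per the file headers, the authors' peak lists give an enrichment score and a p-value per peak, 1 list per day. The deposited expression table gives a mean normalized count, a signal averaged by the authors over libraries, beside a log2 fold change, a standard error and DESeq2 adjusted p-values. The deposited methylation table gives a log fold change of unstated base, handled as a score, with p-values and a false discovery rate.

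Both comparison tables list only results under 0.05, and an unlisted gene may be uncalled or untested. How many were tested follows from each p, its rank and its adjusted value. No file has a column per library, so library depth cannot be known, and neither a replicate test nor a counting interval nor another scaling could be made. The headers do not name the direction. Changes were read as day 4 over day 0, since 466 of 497 genes with peaks at day 4 alone were positive and 765 of 797 with peaks at day 0 alone were negative in the authors' deposited table. Of called sites meeting day 4 peaks alone 414 of 419 were positive, and of those meeting day 0 peaks alone 90 of 119 were negative, in the authors' deposited table.

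Factor genes were sorted by role by hand, and positions were measured to RefSeq gene spans of GRCm38.p6, the assembly of mm10. Overlaps were made with bedtools 2.31.1 with a minimum of 1 bp on one strand, in Python 3.11.15 with pandas 2.3.3, and steps were tested on simulated data. Named genes were members changed at least 2-fold at a mean of at least 100, the 3 largest and 3 smallest changes per role, all with a called site or peaks on 1 day alone, the 5 with most peaks, the 3 top peaks per day, paralogue pairs and up to 8 related genes. Members and lists were chosen with earlier results of these data known. Counts are descriptions and were given no test over genes. Alternatives were stricter p, fold, count, score, overlap and distance limits.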

Additional observations from a re-analysis of the deposited data

How the results depend on the processing

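Of 34 values under other settings 23 stayed within the limits set and 11 moved. In the authors' deposited table, a 2-fold limit left 4 lower and 1 higher factor gene, against 38 and 3, and the core factors alone held 1 higher gene. Peaks at or above the median score of their list numbered 43 of 125 at day 4 and 43 of 146 at day 0. The higher peak count at day 0 was thus not kept under that limit. Leaving out Eif3j1 and Eif3j2, which was not among these settings, reversed the eIF3 peak counts. They went from 28 at day 4 and 32 at day 0 to 28 and 24. Requiring a 50% overlap of both peaks lowered the shared part to 68.8% at day 4 and 58.9% at day 0, against 86.4% and 70.5%. Peaks within 2000 bp of the 3′ end made up 42.4% at day 4 and 46.5% at day 0, and within 500 bp 26.1% at day 0. A false discovery rate under 0.01 left 1 loss of 4 in the authors' deposited table. No paired analysis was possible because the tables carry no column per library, and leaving out a replicate or another normalization was not run for the same reason. The depth behind each value is unknown, so a gene or peak missing from a list is not shown to be unchanged or absent.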
